A study of Mus musculus with 23 samples.

Results

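The hippocampus of control mice was described from 9 of the 23 mice in the study, the Ctrl group, which were chosen by their column names in the table of gene expression. These were male wild-type C57BL/6J mice, acquired at 6 weeks of age, that received a control liquid diet and a daily gavage of the vehicle CMC-Na (0.05%) for 16 weeks, followed by 1 week of behavioral tests. The vehicle gavage means that these mice were handled daily, and they are a reference for the diet rather than undisturbed animals. Of the other mice, 7 (EtOH) received an alcohol diet with the same vehicle and 7 (EtOH-UA) the alcohol diet with urolithin A, a gut microbial product of ellagic acid, at 200 mg/kg/day. Each library is bulk RNA of the hippocampus of 1 mouse. Mice are named by the number in their column heading, which is not a replicate number, and nothing in the sources used here ties a number to a cage, litter or dissection. Expression is in FPKM (sequenced fragments relative to transcript length and library size), which allows genes and mice to be compared approximately. The summed FPKM was not the same in every mouse, so small differences between mice depend on the scaling. The spread of a gene is the SD over the 9 mice of log2(FPKM + 0.1), so a spread of 1 means that mice typically lay a factor of 2 away from the mean, and it was ranked for genes with a Ctrl mean of at least 1 FPKM.

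The hippocampus holds the excitatory granule cells of the dentate gyrus and the pyramidal cells of CA1 to CA3, with interneurons, astrocytes, microglia and myelinating oligodendrocytes among them. It lies against the ventricles, whose choroid plexus is an epithelium that makes cerebrospinal fluid and secretes the thyroxine carrier transthyretin, and it is covered by meninges. Dissection can therefore take more or less of these neighbours. In bulk RNA, fewer cells of a type and less RNA per cell cannot be told apart.

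Of 19733 genes in the table, 12852 (65.1%) had a Ctrl mean of at least 1 FPKM, 6838 of at least 10, and 593 of at least 100. For 11 genes the mean was a 4-digit number, and 846 were listed at 0 in all 9 mice. The genes of at least 100 FPKM held 39.8% of the summed FPKM and the 30 most abundant genes 7.97%. It took 1027 genes to reach 50 percent of the sum. Summed FPKM was between 358381 and 361354 in mice 135, 200 and 203 and between 330456 and 346742 in the other 6. The correlation across genes (Pearson's r of log2 values, with genes that are not independent) was between 0.970 and 0.993 for pairs of Ctrl mice. Mouse 144 had the lowest median correlation with the others, 0.978, and the lowest value of all 9 mice for 21.5% of genes, and spreads that it moved by more than 1.5 times are also given without it.

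Markers of hippocampal neurons were at high levels in every Ctrl mouse. Camk2a, the alpha subunit of the calcium/calmodulin kinase of excitatory synapses, lay between 761.90 and 1038.24 FPKM (median 839.66), and Hpca, the neuronal calcium sensor hippocalcin, between 625.50 and 940.19 (median 736.87). Both ranges were narrow, less than a doubling from the lowest to the highest mouse. Calm2 and Calm3 encode calmodulin, a small calcium sensor that activates this kinase, and were among the 30 most abundant genes. Calm2 had 1244 ± 112 FPKM (SD, n = 9) and Calm3 741 ± 39.4, with a spread of 0.13 and 0.08 on the log2 scale. Of the neocortical and striatal markers, the least abundant were near or below 1 FPKM, with Rspo1 at 0.618 ± 0.451 FPKM and the dopamine receptor Drd2 at 0.674 ± 0.136. RNA of markers of neighbouring regions was not absent, however. Whether it came from those regions or from cells of the hippocampus was not tested. The median level of the markers was 6.47 FPKM for neocortex and 2.76 for striatum and septum, against 6.795 for dentate granule cells. The Y-linked genes Ddx3y, Eif2s3y, Kdm5d and Uty were above 5 FPKM in all 9 mice.

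No mitochondrially encoded gene was found by name among the genes listed, so that class is not in the ranking. The ranking was led by Gm20594, a predicted gene on chromosome 6 (79818031 to 79818364, GRCm38), at 1596 ± 345 FPKM. Its lowest level was 1067.11 in mouse 202 and its highest 2064.48 in mouse 144, and its spread of 0.32 was wider than that of the genes next to it. It was followed by Fth1, the heavy chain of the iron store ferritin, at 1535 ± 123 FPKM, the translation elongation factor Eef1a1 at 1401 ± 103, the glycolytic enzyme Gapdh at 1315 ± 151, Calm2, the neuropeptide-processing carboxypeptidase Cpe at 1241 ± 106 and the actin-binding thymosin Tmsb4x at 1239 ± 182. Fth1 and Eef1a1 differed by more than the SD of either gene, whereas the other neighbours in this order differed by less than the larger of their SDs, so their order is not resolved. The other 4 of the 11 genes were the SNARE protein Snap25 (1115 ± 56.4), the astrocytic lipid carrier Apoe (1042 ± 100), the proline isomerase Ppia (1036 ± 114) and the ubiquitin gene Ubb (1005 ± 106).

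The remaining 19 of the 30 fell between 562 and 959 FPKM. They include synaptic and signalling genes (Camk2a, Hpca, Calm3, the vesicle protein Syp, the calmodulin-binding neurogranin Nrgn, the 14-3-3 protein Ywhah and the G protein subunit gene Gnas), the sodium pump subunit Atp1b1, the glycolytic Aldoa and the ATP synthase subunit Atp5b. They also include the chaperones Hsp90ab1 and Hspa8, the secreted Cst3 and Sparcl1, the selenoprotein Selenow, the myelin gene Mbp and the choroid plexus gene Ttr. In 27 of these 30 genes the spread was below 0.3. The exceptions were Gm20594, Mbp with 0.40 and Ttr with 3.77. Under the same ranking in the other groups, 28 of the 30 were also among the top 30 of EtOH mice and 29 among those of EtOH-UA mice.

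**Figure D1:**
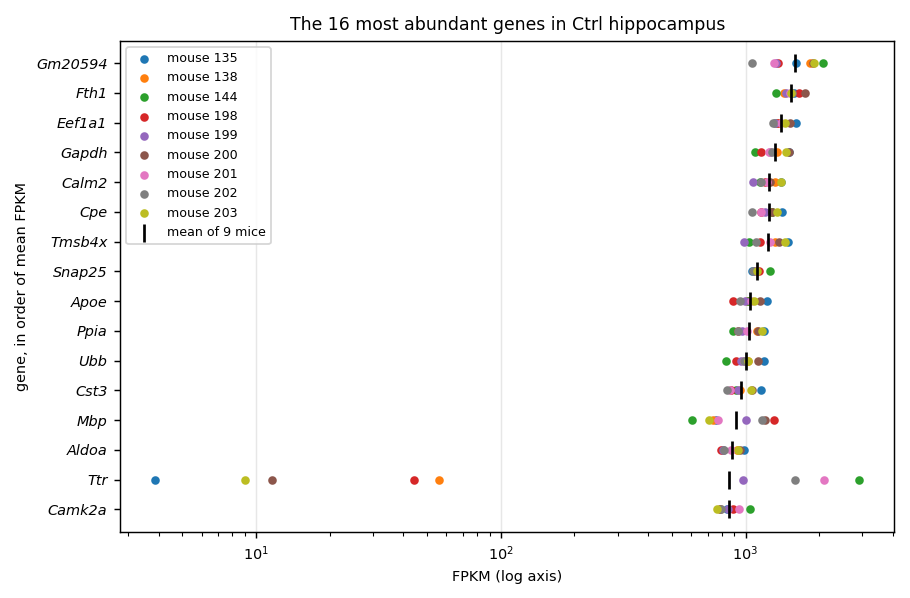
The 16 most abundant genes of Ctrl hippocampus in order of mean FPKM (vertical axis), with FPKM on a log horizontal axis, a coloured point for each of the 9 mice and a black bar at their mean. Most genes form tight clusters, whereas the points of Mbp spread from 604.58 to 1308.15 FPKM and those of Ttr from 3.88 to 2913.56.

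The typical gene differed little between Ctrl mice. The median spread was 0.15 on the log2 scale, with quartiles of 0.10 and 0.21, and 2873 genes (22.4%) had a spread below 0.1. A spread of at least 0.5 was seen for 274 genes (2.13%), and of at least 1 for 74 (0.576%). Without mouse 144 the first of these counts was 250. At the limit for ranking, Dnhd1 with a mean of 1 FPKM was just inside and Serpind1 with 0.998 just outside. Spread was larger in genes of low abundance. The median was 0.23 for genes between 1 and 3 FPKM, 0.16 between 3 and 10, 0.12 between 10 and 30, 0.12 between 30 and 100, and 0.13 above 100. From the steps between low values, 1 FPKM was estimated at 16.02 fragments per kilobase of transcript (quartiles 15.05 and 16.80 over 14 genes). At that depth counting alone gives a median SD of 0.20 for genes between 1 and 3 FPKM, close to what was observed, and of 0.03 for genes above 100 FPKM, where 0.13 was observed.

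The genes with the smallest spread had intermediate levels. Tollip, an adaptor of Toll-like receptor signalling, was at 42.6 ± 0.585 FPKM, from 41.87 in mouse 200 to 43.71 in mouse 203, a spread of 0.020. Wdr82, Disp2, Fam189a1, Cdv3, Mtmr4, Dcaf5, the endosomal GTPase Rab5b, the GABA-B receptor subunit Gabbr1 and Cbfa2t2 followed, with spreads from 0.024 to 0.031 and means from 12.02 to 146 FPKM. When every mouse was rescaled to one common sum, the spread of Tollip became 0.050, so the rank of such genes depends on the scaling.

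Of 17 genes in common use as references for quantitative PCR, none reached a spread of 0.3. The lowest were Pgk1, a glycolytic kinase, with 0.09 (217.62 to 267.03 FPKM, median 233.16), the succinate dehydrogenase subunit Sdha with 0.10, Eef1a1 with 0.10, Actb with 0.11 and Ywhaz with 0.11. These 5 lay below the median gene, together with Tfrc at 0.14 and Tbp at 0.14. Gapdh had a spread of 0.17, higher than 60.2% of genes, and its highest mouse had 1.38 times the level of its lowest. With every mouse rescaled to one common sum, Gapdh had 0.12, below the median gene (0.15), and Tfrc (0.15) and Tbp (0.16) were above it, so the side of the median depends on the scaling. The ribosomal protein gene Rpl13a was the least even, with 0.27 and a ratio of 1.76 between mouse 200 (375.67 FPKM) and mouse 144 (213.11). Rplp0, Polr2a, Ppia, B2m, Hprt and Gusb had a spread between 0.15 and 0.21.

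**Figure D2:**
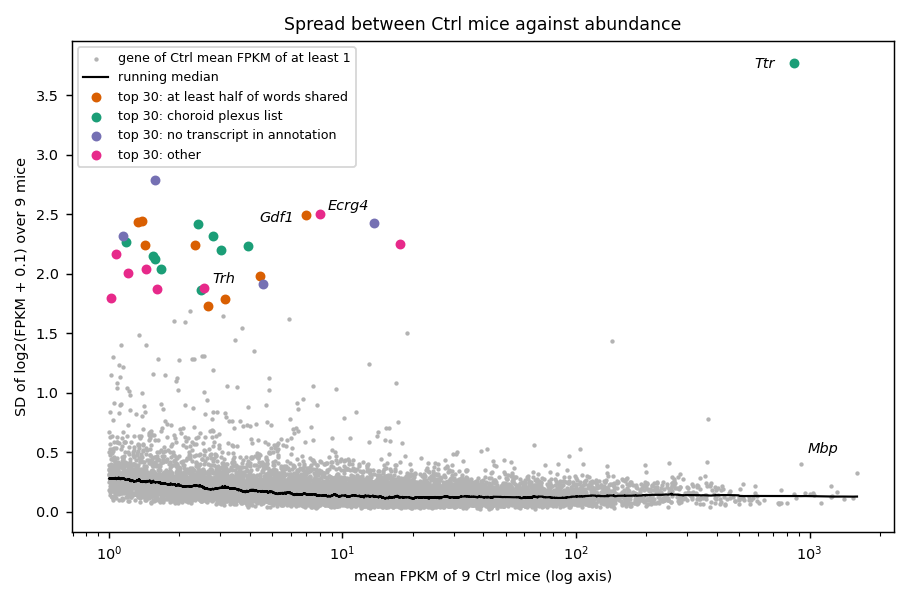
Spread of each gene between the 9 Ctrl mice (SD of log2(FPKM + 0.1), vertical axis) against its mean FPKM (log horizontal axis). Grey points are the 12852 genes ranked, the black line is their running median, and coloured points are the 30 most variable genes by class; words are stretches of 100 bases. Of these 30, Ttr stands alone at high abundance and 27 lie below 10 FPKM.

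Ttr, which encodes transthyretin, had the largest spread of all genes, 3.77. Its level was 2913.56 FPKM in mouse 144, 2087.30 in mouse 201, 1592.02 in mouse 202 and 980.99 in mouse 199. In the other 5 mice it was 56.10 (mouse 138), 44.36 (mouse 198), 11.60 (mouse 200), 9.03 (mouse 203) and 3.88 (mouse 135). The 4 mice are called high and the 5 low by Ttr itself, and no mouse lay between 56.10 and 980.99 FPKM. The rank of Ttr as 15th most abundant gene thus came from 4 mice, and its median over the 9 was 56.1 FPKM. Without mouse 144 its spread was 3.60.

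The choroid plexus list of 15 markers moved with it. In 15 of 15 members, whatever their mean, the same 4 mice (144, 201, 202 and 199) had the 4 highest values, and mouse 144 was the highest in each. Ttr is among the 15 and has these 4 mice on top by definition, since they were chosen by it. Over all genes ranked, 393 (3.06%) had these 4 mice on top, and 14.5% were highest in mouse 144. In the other 5 mice the mean reached 1 FPKM for 3 members, so most of the 14 that were ranked for spread passed the limit of 1 FPKM through the 4 high mice, and their spreads, from 1.03 to 3.77, are given as a description. The summed level of the list was 41.9 FPKM in the lowest mouse, 119 in the median mouse and 3398 in the highest. The list is a set of known markers, but it was written with the variation of Ttr in these mice already known, so its counts are a description.

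Members differed in how far they fell in the 5 low mice. The apical channel genes Kcnj13 (chromosome 1, 87384577 to 87394729) and Kcne2 (chromosome 16, 92292389 to 92298133) came close to 0 there. Kcnj13, a potassium channel of the epithelium, was at 8.89, 4.93, 4.38 and 2.62 FPKM in mice 144, 201, 202 and 199 and at no more than 0.36 elsewhere. The folate receptor Folr1 was at 9.70, 6.11, 5.12 and 2.98 FPKM in these mice and at no more than 0.48 elsewhere. Slc4a5, a bicarbonate transporter, and the coagulation factor gene F5 showed the same separation, with 0.07 and 0.27 FPKM at most in the low mice. At such levels a gene rests on few fragments, and differences among the 5 low mice are not detectable for these members.

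Enpp2 (autotaxin, which makes lysophosphatidic acid), Kl (klotho) and the prolactin receptor Prlr kept a level in the low mice. Enpp2 lay between 32.20 and 61.32 FPKM in the 5 low mice and between 174.15 and 380.80 in the 4 high ones, and Kl between 3.37 and 6.16 and between 9.74 and 23.31. These genes therefore had the smaller spreads of the list, 1.43 for Enpp2, 1.03 for Kl and 1.04 for Prlr. Otx2, a transcription factor of this epithelium, was at 4.45, 3.95, 2.42 and 2.08 FPKM in the high mice and at 0.03 to 0.75 in the low ones. Mouse 198 was the highest of the low mice for Otx2, Calml4 (1.66) and Clic6 (1.19), although mouse 138 had more Ttr. RefSeq promoter windows of 300 bases (250 before to 50 after the start, GRCm38.p6) were searched for the letters TAATCC on either strand. Windows on chromosome 18, where Ttr lies, were left out of the count for the list, so Ttr is not in it. The letters were found in 1 of the 16 windows counted, which belong to 10 of the 15 list genes, that of Otx2 itself. They were found in 7.06% of all 32851 windows, chromosome 18 included.

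Outside the list, 6 more of the 30 most variable genes had these 4 mice on top, against 3.06% of all genes ranked. They were Ecrg4 (a secreted protein gene of this epithelium, chromosome 1, 43730602 to 43742564), the epithelial Steap1, Cldn2 and Krt18, and Prr32 and Col8a2. The 30 were picked by spread over these same mice, so this count is a description. Apart from Ecrg4, these genes were at no more than 0.62 FPKM in the other mice and passed the limit of 1 FPKM through the 4 high ones. Ecrg4 ranged from 0.13 FPKM in mouse 135 to 23.52 in mouse 144, with a median of 1.79. By Pearson's r of log2 values over the 9 mice, the genes most like Ttr were Ecrg4, F5, Clic6, Sema3b and Kcnj13, and those most like Ecrg4 were Ttr, Clic6, Krt18, F5 and Zic1. No r is given because the mice fall into separate clusters. Of the other parts of the ventricle and surface, 6 of 10 meningeal fibroblast markers had the same 4 mice on top, against 3.06% of all genes ranked. Slc13a4 lay between 3.89 and 7.37 FPKM in those 4 mice and between 0.33 and 2.39 in the others, and the growth factor Igf2, also made by the choroid plexus, between 19.16 and 41.11 and no more than 9.40. Mouse 201 had the highest meningeal score and mouse 203 the lowest. The part of either list in the levels of other genes was not tested. Ependymal markers followed a partly different order. Ccdc153 was at 4.28 FPKM in mouse 198 and 4.17 in mouse 202 and at 2.68 or less elsewhere. The mean of the list was highest in mice 202, 198, 201 and 144 (0.72, 0.57, 0.54 and 0.19 log2 units). It was lowest in mice 203, 135 and 200, also the lowest for the choroid plexus list. While 0 of 6 had the mice of highest Ttr on top, only 3.06% of all genes ranked did, so this count does not set the list apart.

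**Figure D3:**
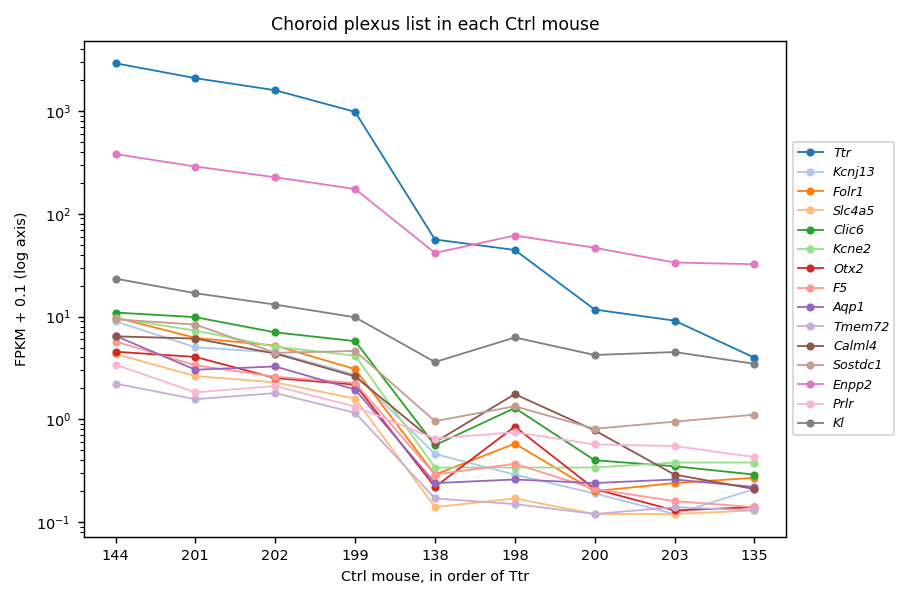
Expression of the 15 choroid plexus markers (FPKM + 0.1, log vertical axis) in each Ctrl mouse, in order of Ttr (horizontal axis), with a line for each gene. All lines drop between mouse 199 and mouse 138, by the most for Ttr, which goes from 980.99 to 56.10 FPKM.

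A second class of highly variable genes had transcripts that other genes share in large part or in full. Of the 30 most variable genes, 8 had at least 50 percent of their 100-base words in another gene of the GENCODE M21 annotation, 30.8% of the 26 that could be matched to it. Of all genes ranked, 225 of 12729 matched (1.77%) did, and of those with a spread of at least 0.5, 41 of 255 (16.1%). The shared part was between 73.2% and 100% in these 8. Reads of 100 bases that fall in shared words cannot tell such copies apart by themselves, so the values of each member are uncertain. Sums over copies are given beside them, and where a partner is much more abundant the sum has a narrower spread for that reason alone.

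Cers1, a ceramide synthase, and Gdf1, a growth factor of the TGF-beta family, are encoded by a shared transcript on chromosome 8 (70315775 to 70331592), and all 100-base words of Gdf1 are shared. RefSeq gives both genes the same start, and a second one, 13990 bases further on, for Gdf1. The 150 bases before the shared start (GRCm38.p6, chr8:70315625-70315774, + strand), with no part in capitals, are shown because one promoter window stands for both genes:
Cers1 and Gdf1: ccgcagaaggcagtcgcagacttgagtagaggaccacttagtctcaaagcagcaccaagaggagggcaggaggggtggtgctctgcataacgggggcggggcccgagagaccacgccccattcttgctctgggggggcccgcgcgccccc

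Gdf1 was listed at 25.11 FPKM in mouse 138, 20.09 in mouse 202, 9.83 in mouse 201, 0 in mouse 135 and 0.88 to 2.87 in the other 5. Cers1 was at 0.14 FPKM in mouse 138, 3.44 in mouse 202 and 17.38 in mouse 201, and at 19.20 to 28.37 in the other 6. The 2 genes were thus reciprocal, with Gdf1 high in the mice where Cers1 was low. Gdf1 had a spread of 2.49 and Cers1 of 2.25, whereas their sum lay between 21.47 and 28.37 FPKM in the 9 mice, with a spread of 0.15. The spread of Gdf1 was 1.66 with a pseudocount of 1, 3.37 with 0.01 and 1.34 by the median absolute deviation.

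The histone genes H2ac18 and H2ac19 lie close together on opposite strands of chromosome 3, and all words of H2ac19 are in H2ac18. Their upstream sequences share a run of 110 bases. The 150 bases before each start are shown with this run in capitals (GRCm38.p6, chr3:96245347-96245496, + strand, and chr3:96240375-96240524, - strand), because it shows that the copies are alike beyond the transcripts:
H2ac18: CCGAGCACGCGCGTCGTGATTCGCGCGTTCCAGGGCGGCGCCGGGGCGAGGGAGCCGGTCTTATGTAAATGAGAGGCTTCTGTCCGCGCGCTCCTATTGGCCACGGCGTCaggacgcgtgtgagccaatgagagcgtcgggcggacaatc
H2ac19: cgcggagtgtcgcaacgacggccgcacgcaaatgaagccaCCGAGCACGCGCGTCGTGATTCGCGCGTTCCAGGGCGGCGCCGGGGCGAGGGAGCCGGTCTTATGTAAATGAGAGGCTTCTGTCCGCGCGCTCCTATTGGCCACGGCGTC

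H2ac19 was listed at 0 in mice 138, 144, 199 and 201 and at 1.38 to 5.45 FPKM in the other 5, a spread of 2.44. H2ac18 lay between 10.15 and 17.02 FPKM, and the sum of both between 10.18 and 17.02, a spread of 0.23. The histone H3 copies H3c14 and H3c15 took turns: H3c14 was at 1.70 to 2.51 FPKM in 6 mice and 0 in mice 199, 200 and 201, the 3 mice in which H3c15 was above 0 (1.52, 3.46 and 2.11). Each mouse thus listed 1 of these 2 genes and not the other, and their sum had a spread of 0.33 where H3c14 alone had 2.24.

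For Fam177a2 on chromosome 12 the spread was 1.98, from 0 in mouse 201 to 10.42 FPKM in mouse 202, and for the sum with Fam177a it was 0.11. For the dynein light chain Dynlt1c the spread was 2.43 and with Dynlt1f and Dynlt1a it was 0.16. For Entpd4, a nucleotidase of the secretory pathway, it was 1.72 and with the far more abundant Entpd4b 0.25. The sum was lowest (32.76 FPKM) in mouse 199, where Entpd4 was at 0. Entpd4 is too small a part of the sum to show whether reads were split between these copies. For the zinc finger gene Zfp973 the spread was 1.78 and with Zfp965 and Zfp968 0.29. For these 7 groups of copies, the sum had a spread between 0.11 and 0.33. Dynlt1c, H2ac19 and Entpd4 had means of 1.33, 1.39 and 2.66 FPKM against median sums of 14.07, 14.55 and 43.49. Their sums are narrow because of the partners, whether or not reads were split between copies. In LOC108169010, 78.3% of the words lay in another gene, and no partner in the table was found for it.

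Other copies further down the ranking kept a wide spread when summed. They were chosen after their values were seen. On chromosome 14, Plac9a and Plac9b, and Tmem254a, Tmem254b and Tmem254c, lie in repeated blocks. The 150 bases before the starts of Plac9a (chr14:25902894-25903043, - strand) and Plac9b (chr14:26182352-26182501, - strand) share a run of 72 bases, in capitals, shown because the RefSeq starts lie at different points of one repeat:
Plac9a: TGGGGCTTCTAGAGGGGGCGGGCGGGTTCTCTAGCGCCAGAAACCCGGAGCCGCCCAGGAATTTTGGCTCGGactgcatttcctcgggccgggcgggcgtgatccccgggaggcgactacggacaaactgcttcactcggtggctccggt
Plac9b: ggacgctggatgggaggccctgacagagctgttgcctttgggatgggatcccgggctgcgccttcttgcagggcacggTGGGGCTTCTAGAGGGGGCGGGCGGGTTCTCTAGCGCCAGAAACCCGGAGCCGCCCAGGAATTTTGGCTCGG

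Plac9a, Plac9b and their copy Gm9780 summed to 1.23 FPKM in mouse 202, 1.67 in mouse 199, 2.29 in mouse 144 and 3.46 to 7.32 in the others, a spread of 0.87. The 3 Tmem254 genes summed to 7.51 FPKM in mouse 202, 8.29 in mouse 199, 14.95 in mouse 144 and 16.64 to 33.46 in the others, a spread of 0.76. Mice 202, 199 and 144 were thus the 3 lowest in both families. Anxa11, which neighbours Plac9a, was also lowest in mouse 199, at 20.31 FPKM, but was at 24.43 in mouse 202 and 30.29 in mouse 144, within a range of 20.31 to 35.12.

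**Figure D4:**
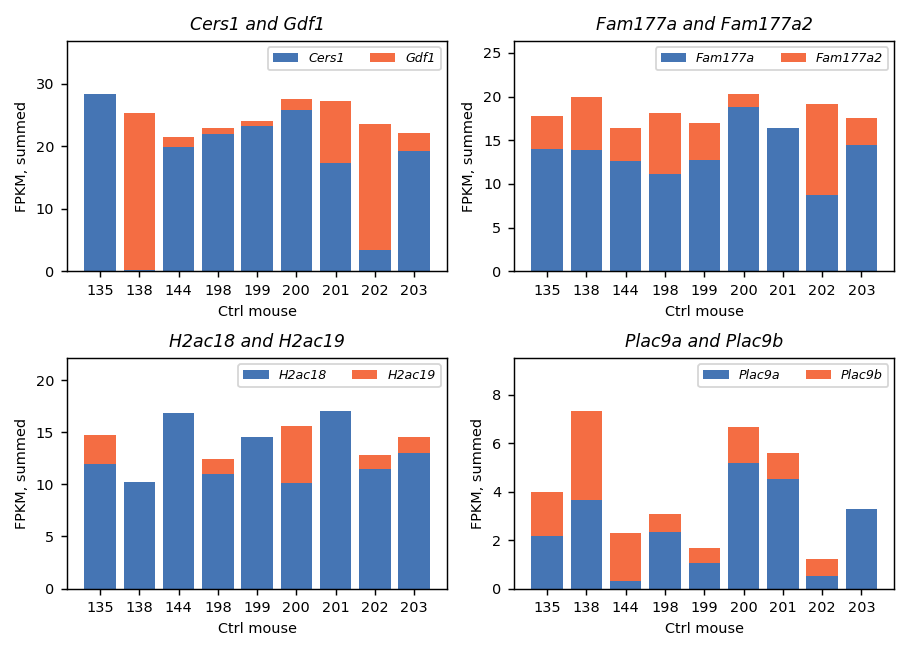
FPKM of 4 pairs of near-identical or overlapping genes, stacked, in each of the 9 Ctrl mice (horizontal axis). The split between the members varies from mouse to mouse for Cers1 and Gdf1, Fam177a and Fam177a2, and H2ac18 and H2ac19 while the height of the bars stays similar, and for Plac9a and Plac9b the height itself varies.

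In another pattern, 1 mouse stood far below all others. A gene was counted when the lowest mouse was at least 4 times below the next (with 0.1 FPKM added to both), a rule set after the values were seen. It held for 19 genes, and for no gene did 1 mouse stand as far above the rest. Mouse 144 was the lowest in 7 of the 19, of which 6 are assigned to chromosome 4 by RefSeq, where 814 genes were ranked. No other mouse was the lowest in more than 3.

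These genes are mostly unnamed. LOC100041599 was listed at 0 in mouse 144 and at 12.27 to 17.60 FPKM in the other 8, and LOC100041593 at 0 and at 3.84 to 6.45. Gm29804 (chromosome 4, 41890443 to 41893163) was at 0.86 FPKM in mouse 144 and at 16.17 to 25.90 elsewhere. Without mouse 144 the spread of LOC100041599 went from 2.43 to 0.19, that of LOC100041593 from 1.91 to 0.30 and that of Gm29804 from 1.5002 to 0.234. Ccl21b, one of several copies of a chemokine gene of lymphoid tissue, was at 0.15 FPKM in mouse 144 and at 4.01 or more in the others, and its sum with 4 copies had a spread of 1.63. Alone it had 1.62, and 0.42 without mouse 144. In the stretch of chromosome 4 from Ccl27a to Phf24 (41769467 to 42944752), 15 genes were ranked. The stretch was drawn around genes found by this rule, so its counts are a description. Mouse 144 was the lowest in 11 of the 15 (in 21.5% of all genes ranked), and 8 were below 0.5 times the median of the other mice. Fam205c and Phf24, at the end of the stretch and with no shared words, were at 0.914 and 0.941 times that median. All words of Ccl21b, Gm21953, Fam205a3, Gm21586 and Fam205a2 are in other genes, so the values of these copies are not separate measurements. By the rule, the other genes of chromosome 4 were LOC100041504 and Gm13302. The gene elsewhere was the collagen gene Col6a4, at 0.12 FPKM in mouse 144 and 0.93 or more in the others.

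Beyond these classes, Trh, which encodes thyrotropin-releasing hormone (chromosome 6, 92242061 to 92244650), was at 10.90 FPKM in mouse 135, 7.19 in mouse 138 and 1.57 or less in the other 7. Its spread was 1.88, or 1.202 with a pseudocount of 1 and 1.06 by the MAD (the median absolute deviation, scaled), and none of its words is shared. Trh was not high in the mice with high Ttr: it was 0.09 FPKM in mouse 144. The second largest spread, 2.79, belonged to LOC100862468, an unnamed gene that was listed at 0 in 6 mice and at 6.17, 4.11 and 3.92 FPKM in mice 202, 138 and 198. The genes most like it by Pearson's r were Mafk, Gad2, Appbp2, Scn2a and Usp9x, none of which varied as widely. LOC100862220, also unnamed, was listed at 0 in 4 mice and reached 3.97 FPKM.

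Among genes above 10 FPKM, where counting error is small, 25 had a spread of at least 0.5. These were looked at after the values were seen. Of the 25, 5 had the 4 mice of high Ttr on top, against 3.06% of all genes ranked. They were Ttr, Enpp2, Igf2, the binding protein Igfbp2 and the ion channel Trpm3. Ttr has these mice on top by definition, and Enpp2 and Igf2 belong to lists described above. The 25 were picked by spread over these same mice, so the count is a description. Ptgds, the prostaglandin D synthase of the meninges and choroid plexus, was at 841.67 FPKM in mouse 201 and between 150.06 and 453.54 in the others. The small actin-binding gene Tmsb10 ranged from 51.37 FPKM in mouse 144 to 158.29 in mouse 200, and Ccn3 from 35.20 in mouse 201 to 123.17 in mouse 138. Coro6, Tshz2 and Nxph3 had their lowest values in mice 138, 144 or 201. Coro6 was at 30.53 FPKM in mouse 199 and 6.62 in mouse 138, and Tshz2 at 29.49 and 6.46 in the same mice.

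The marker lists of hippocampal cells separated mice by region. The 8 dentate granule cell markers had a median spread of 0.54, and mouse 138 was the lowest in 7 of them (in 13.2% of all genes ranked). Prox1, the transcription factor that defines granule cells, was at 5.66 FPKM in mouse 138 and between 10.70 and 22.89 in the others. Dsp, which encodes desmoplakin, was at 1.14 FPKM in mouse 138 and between 4.94 and 10.53 in the others, and C1ql2, a synaptic organizer, at 12.99 and between 24.33 and 43.06. Mouse 138 lay outside the range of the other 8 for all 3. The exception was Calb1 (calbindin, also made by CA1 cells and interneurons), which was highest in mouse 138 at 57.79 FPKM. Camk2d was highest in the same mouse, at 36.93 FPKM against 8.91 to 21.53 elsewhere. The mean of the granule list was 0.94 log2 units below the gene means in mouse 138 and 0.50 above in mouse 201, and these 2 mice were at the ends under each scaling tried.

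Pyramidal cell markers varied less. The 5 CA1 markers had a median spread of 0.27, and mouse 144 was the lowest in 4 of them (in 21.5% of all genes ranked). Mpped1 was at 49.15 FPKM in mouse 144 and reached 79.77 in mouse 200, the most abundant CA1 marker here, with Wfs1 between 20.07 and 34.73 and Fibcd1 between 21.38 and 34.25. The CA3 markers had a median spread of 0.26, with mice 201 and 144 at the high end and mouse 135 at the low end. Bok, the most abundant, lay between 32.93 and 48.44 FPKM, and Coch, the most variable, between 1.08 and 4.12. The CA2 markers had 0.24, led by Pcp4 at 143 ± 23.3 FPKM. The 13 excitatory markers shared by regions had 0.16, of which Slc17a7, the vesicular glutamate transporter, was the most even with 0.07 (406.28 to 459.87 FPKM). Interneuron markers had 0.24. Sst (somatostatin) was the most variable, from 106.58 FPKM in mouse 144 to 265.63 in mouse 200 (a spread of 0.39, and 0.24 without mouse 144), followed by Pvalb (parvalbumin) from 14.56 in mouse 144 to 31.76 in mouse 135.

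Oligodendrocyte genes varied together. The 18 genes of the list had a median spread of 0.40, with mouse 198 the highest in 10 and mouse 144 the lowest in 13. Over all genes ranked these shares were 8.34% and 21.5%. Mbp was at 1308.15, 1202.76 and 1162.24 FPKM in mice 198, 200 and 202, at 1006.36 in mouse 199 and between 604.58 and 768.95 in the other 5. Mobp had the same 3 mice on top, with 143.42, 116.46 and 130.43 FPKM, and 59.77 to 102.11 elsewhere. It was the most variable of the list with 0.46, and Mag and Opalin had 0.42 and 0.43. Of the 18 genes, 16 had a spread above the median gene. The other 2 were Olig2 with 0.11 and Car2 with 0.12. Markers of oligodendrocyte precursors had a median of 0.14. The summed level of the 18 genes was 1406 FPKM in the lowest mouse, 1760 in the median and 2874 in the highest. Mice 198, 202 and 200 led and mice 144 and 203 were last under each scaling tried.

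The 15 astrocyte genes had a median spread of 0.15, with Glul (glutamine synthetase) at 523 ± 36.5 FPKM, and Aqp4, the water channel of end-feet, the most variable with 0.27, at 35.63 FPKM in mouse 144 and 19.08 to 26.88 elsewhere. The 12 microglial genes had 0.20, near the upper quartile of all genes, with mouse 135 the highest in 7. The complement genes C1qa, C1qb and C1qc were at 37.86, 33.13 and 37.32 FPKM there and at no more than 33.63 elsewhere. Aif1 was the most variable, from 3.37 to 7.58 FPKM. The 14 vascular genes had 0.16, led by Vtn (30.7 ± 4.50 FPKM), Itm2a and Rgs5, and Myl9 and Tagln of smooth muscle varied most with 0.32 and 0.31. Red cell RNA stood apart in 1 mouse: Hbb-bs was at 16.07 FPKM in mouse 144 and at 36.83 to 58.82 in the others, and Hba-a1 at 16.82 and at 26.43 to 51.13. Hemoglobin genes are near-identical in pairs, yet 4 of the 5 red cell genes were lowest in mouse 144, against 21.5% of all genes ranked. The median spread of the 4 ranked was 0.62, and 0.31 without this mouse.

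**Figure D5:**
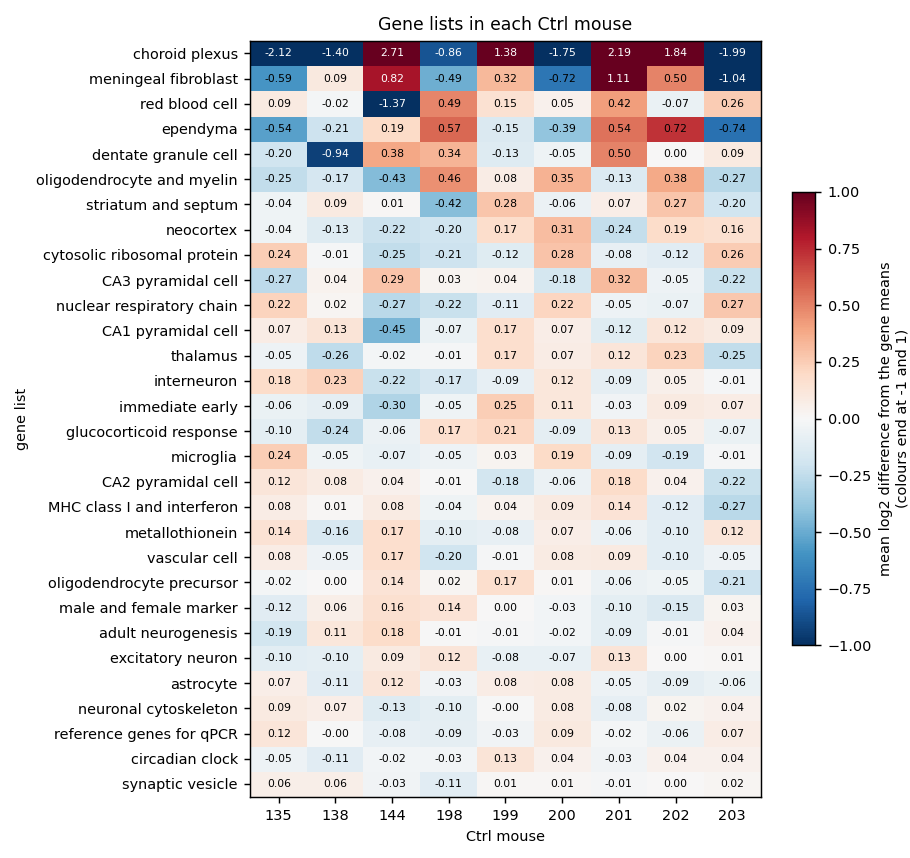
Mean difference of each list's members (Ctrl mean of at least 1 FPKM) from their gene means, in log2 units, for each of the 9 Ctrl mice (columns), with lists in order of their spread (rows). The choroid plexus list goes from -2.12 to 2.71, the dentate granule list reaches -0.94 in mouse 138, the red cell list -1.37 in mouse 144, and the synaptic vesicle list stays between -0.11 and 0.06.

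Housekeeping families moved in small but shared steps. The 83 cytosolic ribosomal protein genes had a median spread of 0.22, with mouse 200 the highest in 39 and mouse 144 the lowest in 47. Over all genes ranked these shares were 13.3% and 21.5%. The 82 nuclear genes of the respiratory chain and ATP synthase had a median spread of 0.22. Mouse 203 was the highest in 39 (in 10.1% of all genes ranked) and mouse 144 the lowest in 47. Rpl3 lay between 361.40 and 511.65 FPKM, Rplp1 between 362.99 and 511.26, Atp5b between 485.22 and 690.97 and Cox4i1 between 415.15 and 632.34. In both families mice 135, 200 and 203, the 3 with the highest summed FPKM, led, and mice 144 and 198 were last. The same mice stood at the ends under each scaling tried, with the median spread down to 0.14 and 0.16 under quantile normalization. The most variable members were Rpl22l1 with 0.38 and Cox6b2 with 0.71, the latter with a different order (4.05 FPKM in mouse 201 and 0.98 in mouse 200).

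The 18 synaptic vesicle genes had a median spread of 0.11, with Vamp2 at 0.06 (398.08 to 453.80 FPKM) and Snap25 at 0.07, and their summed level lay between 5269 and 5706 FPKM. Stx1a was the most variable with 0.29. The 21 cytoskeletal genes had 0.15, with 12 of them above the median gene. Actg1 was at 502 ± 43.8 FPKM and Tuba1a at 451 ± 50.2, whereas Stmn1, which destabilizes microtubules, had a spread of 0.41, with 158.00 FPKM in mouse 144 and 366.60 in mouse 200. The 15 clock genes had 0.13, from Cry2 with 0.07 to Npas2 with 0.25, and the clock output gene Dbp lay between 28.84 and 37.37 FPKM. Immediate early genes, which neuronal activity and handling induce, had 0.25 over 19 genes. Mouse 199 was the highest and mouse 144 the lowest in 10 each, against 11.7% and 21.5% of all genes ranked. Fos was at 2.47 FPKM in mouse 199 and 0.75 in mouse 144 (median 1.43), Arc at 21.77 and 10.46 (median 16.96), and Egr1 at 29.65 and 16.24 (median 22.45). For these 3 genes the same mice were the highest and the lowest. The mean of the list was highest in mouse 199 and lowest in mouse 144 under each scaling.

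Whether the level or spread of a gene in Ctrl mice differed from that in the 14 alcohol-fed mice was tested with limma over all genes (Ctrl minus the mean of the EtOH and EtOH-UA groups). For level, 0 of 15985 genes (0%) passed an adjusted p of 0.05. The lowest adjusted p was 0.824, and 469 genes had an unadjusted p under 0.05, of which 157 were higher in Ctrl mice. The smallest p-values belonged to Gm6109, Xrra1 and Dbp on the higher side and to Cd24a, Slc38a5 and Fam166c on the lower. Dbp was 0.22 ± 0.05 (SE) higher on the log2 scale in Ctrl mice (limma, adjusted p = 0.9998), and Cd24a, a glycoprotein of ependyma and immature neurons, was lower by 0.65 ± 0.13 (log2 difference -0.65, limma, adjusted p = 0.824).

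For spread, tested as the deviation of each mouse from its group mean on the log2 scale, 1 of 12904 genes (0.00775%) passed, and 816 had an unadjusted p under 0.05, of which 315 were on the side of a larger spread in Ctrl mice. The gene was Ttr, whose mean deviation was 3.55 log2 units among Ctrl, 1.62 among EtOH and 3.45 among EtOH-UA mice, a difference of 1.01 ± 0.19 (SE; limma, adjusted p = 0.00234). The alcohol-fed mice also varied, from 58.36 to 5628.27 FPKM among EtOH mice and from 11.34 to 7704.77 among EtOH-UA mice. This call rested on the variance that limma borrows from other genes. The SE of Ttr by itself was 0.59, a permutation of the mice over groups (100000 draws, two-sided) gave p = 0.135, and the adjusted p was 0.807 without the trend in variance and 0.871 with robust estimation. A difference in spread was thus not established for Ttr. On the lower side, Ttc14, Ifi27 and Cd46 had the smallest p-values (limma, adjusted p = 0.783 for each).

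The most variable genes of Ctrl mice also varied in the other groups. The median spread of the 30 was 2.22 among Ctrl mice, 1.47 among EtOH mice and 2.26 among EtOH-UA mice, the first from genes ranked by that same value. A spread of at least 0.5 was seen for 26 of them in EtOH and 29 in EtOH-UA mice, against 1.90% and 3.34% of all genes that reached 1 FPKM on average there. Of the 30, 15 were among the top 30 of EtOH mice and 22 among those of EtOH-UA mice. The exceptions included LOC100041599 and LOC100041593, whose spread was 0.49 and 0.37 in EtOH mice and 0.40 and 0.59 in EtOH-UA mice. Over all genes above that level in the group itself, the median spread was 0.14 among EtOH mice and 0.19 among EtOH-UA mice.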

How the data were processed

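Hippocampal RNA of 23 mice (9 Ctrl, 7 EtOH, 7 EtOH-UA) was sequenced with paired reads of 100 bases. The authors mapped the reads with Bowtie2 to mm10, quantified them with RSEM and deposited FPKM per gene to 2 decimals. The submitters' processing notes also name HISAT2 2.1.0, Bowtie2 2.2.5, RSEM 1.2.8 and StringTie, with no role given. The methods name poly(A)+ RNA and the labels total RNA. Mitochondrially encoded genes were searched for by name pattern and 0 were found, so they are not in the rankings or the sums. No read counts were used here, so groups were compared on the log2 scale of FPKM.

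Columns were assigned to groups by name, and no 2 columns were identical. Abundance was the mean FPKM over the 9 mice and spread the SD of log2(FPKM + 0.1), for genes with a Ctrl mean of at least 1 FPKM. Fold differences of low genes are understated by the pseudocount. Groups were compared with limma 3.58.1 in R 4.3.3 (eBayes with trend, 3 groups, no covariate, Benjamini-Hochberg adjustment), for genes with a mean over all mice of at least 0.1 FPKM (level) or 1 FPKM (spread), after a test on simulated data. Mice were housed 4 per cage and the sources used here do not tie mice to cages, so p-values measure the spread between these mice. Shared 100-base words were counted over GENCODE M21 transcripts (GRCm38). Gene positions and promoters are from RefSeq (GRCm38.p6). The depth per library was estimated from the steps between low FPKM values, 14 of 113 genes having whole steps within 0.1, with settings chosen while looking at the values.

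The members and gene lists were chosen with earlier results of these data known. Genes named were the 30 most abundant, the 30 with the largest and the 10 with the smallest spread, the 3 most abundant and 2 most variable of each list, the calmodulin and reference genes, up to 5 genes per direction of each test or, with none past the threshold, the 3 smallest p-values, and the 5 genes most like the 3 most variable; others are said to be chosen after their values were seen, as were members that show the pattern of a list. Some genes that the rule names are not reported here. Alternatives were other pseudocounts, filters, scalings and measures of spread, single comparison groups and each mouse left out.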

Additional observations from a re-analysis of the deposited data

Results flagged for a closer look

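In these results the highest or lowest of the 9 Ctrl mice lay farther from the next, as a share of the whole range on the log2 scale, than Dixon's limit for 9 samples. Chance flags about 1 in 20 groups of samples. Of 209 genes named by the rule, 15 (7.18%) passed it, and of all 12852 genes ranked 474 (3.69%), with mouse 144 the lowest in 88 and mouse 138 in 74 of these.

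Mouse 144 was the outlying mouse for 6 genes and 1 list. It was the lowest for LOC100041593 and LOC100041599, both listed at 0, for Hbb-bs at 16.07 FPKM, for Hbb-bt at 2.05 FPKM (5.47 to 10.39 in the others) and for the summed red blood cell list at 40.3 FPKM (91.1 to 137 in the others). It was the highest for Mt2, a metallothionein, at 177.84 FPKM (109.26 to 127.53) and for Snap25 at 1253.67 FPKM (1062.46 to 1137.06).

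Mouse 138 was the lowest for Dsp at 1.14 FPKM, C1ql2 at 12.99 FPKM, the sodium channel subunit gene Scnn1a at 1.09 FPKM (2 to 3.17 in the others) and Cers1 at 0.14 FPKM. Dsp and C1ql2 are both of the dentate granule list.

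Entpd4 was listed at 0 in mouse 199, Fam177a2 at 0 in mouse 201 and Zfp973 at 0 in mouse 135. All 3 are genes with at least 50 percent of their words in another gene. The Y-linked Eif2s3y was at 24.52 FPKM in mouse 202 (32.93 to 39.03 in the others), and Xrra1 at 0.84 FPKM in mouse 200 (0.57 to 0.66). The summed synaptic vesicle list was 5269 FPKM in mouse 198 (5489 to 5706 in the others).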

How the results depend on the processing

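The abundance ranking kept 28 to 30 of its 30 genes under the alternatives tried. The count of 274 genes with a spread of at least 0.5 became 132 with a pseudocount of 1, 1197 with a mean of at least 0.1 FPKM, 25 with a mean of at least 10 FPKM and 128 for the SD minus its running median, and lay between 250 and 297 when 1 Ctrl mouse was left out. Of the 30 most variable genes, 3 were kept with a mean of at least 10 FPKM, 16 with the MAD in place of the SD, 22 to 30 under the other settings and 23 to 29 when a mouse was left out (23 without mouse 144).

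The count of genes that differed in spread was 1 in the main comparison and 0 with a pseudocount of 0.01, with deviations from the group median, without the variance trend and with robust estimation, the last 2 added after seeing the data. The gene called was not Ttr but LOC101055676 with a mean of at least 0.1 FPKM (adjusted p = 0.02) and Cers1 against EtOH-UA only (adjusted p = 2.72e-05), both with a smaller spread in Ctrl mice. When 1 mouse was left out the count was 0 or 1. The 1 gene called for level was LOC115488002, without Ctrl mouse 203 (adjusted p = 0.036).

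The difference in spread of Ttr, 1.01, was no longer past the threshold with a pseudocount of 0.01 (1.02), a mean of at least 0.1 FPKM (1.01, adjusted p = 0.0551), deviations from the group median (1.05), Ctrl against EtOH-UA only (0.10), no variance trend (1.01) or robust estimation (1.01). Against EtOH only it was 1.92. It lay between 0.74 and 1.34 with 1 mouse left out, past the threshold in 15 of 23 such fits. It was not past it without EtOH mouse 189, EtOH-UA mice 102, 139, 178 or 179, or Ctrl mice 144 (0.74), 201 or 202. The cause was not tested.

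No paired analysis was possible because the columns carry mouse numbers and no replicate numbers. Genes near 1 FPKM rest on few fragments, and copies cannot be told apart where they share sequence.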

Other observations

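Markers of regions next to the hippocampus were present, with a median level of 6.47 FPKM for neocortex, 2.76 for striatum and septum and 2.02 for thalamus. The neocortical list had a median spread of 0.27. Ccn2, a matricellular protein gene of deep cortical neurons, was the most variable of it, from 2.95 FPKM in mouse 144 to 13.17 in mouse 200 (median 6.12), and Lamp5 was the most abundant at a mean of 18.3 FPKM. Striatal and septal markers had a median of 0.25, and Zic1 lay between 1.45 FPKM in mouse 135 and 4.81 in mouse 201. Thalamic markers had 0.32, led by the kinase gene Prkcd, from 4.66 FPKM in mouse 203 to 11.12 in mouse 144. Mice 199 and 202 were among the 3 highest for each of these 3 lists.

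Genes of adult neurogenesis were low, with Dcx (doublecortin, of immature neurons) between 2.98 and 4.78 FPKM and Neurod1 between 7.30 and 13.09. Glucocorticoid-responsive genes had a median spread of 0.18. The lipid droplet gene Plin4 (0.94 FPKM in mouse 138 and 3.72 in mouse 198) and the kinase gene Sgk1 (28.30 in mouse 135 and 64.24 in mouse 198) were the most variable, both highest in mouse 198. The 3 metallothioneins, which bind zinc, had 0.22, and 0.11 without mouse 144, with Mt3 between 201.50 and 301.46 FPKM and Mt1 between 183.73 and 243.31. Class I histocompatibility and interferon-induced genes had 0.23, and Isg15 was the most variable, from 0.80 FPKM in mouse 203 to 2.22 in mouse 135.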
